A study of Arabidopsis thaliana with 9 samples.

Results

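Arabidopsis seedlings of the lines OE2 and OE1 were set against each other, with 3 RNA sequencing libraries of each taken from a series of 9. All seedlings were 9 days old and grew on half-strength Murashige and Skoog medium with 2% sucrose. The labels give 1 genotype for both lines, the overexpression of CsGSTF1, a glutathione S-transferase gene of tea. The series title links the gene to pigment rescue in tt19-8, a knock-out of TT19, and the remaining 3 libraries are tt19-8 seedlings. The labels name neither the promoter of the transgene, nor the number of insertions, nor the background of the lines, nor whether libraries came from separate plants, so p-values measure only the spread between these samples. Libraries OE2 1, 2 and 3 were compared with OE1 1, 2 and 3 within pairs of the same number, over the 17751 of 33602 genes with at least 1 FPKM (fragments for each kilobase of a gene, scaled to the size of the library) in at least 3 of the 6 libraries.

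Anthocyanins are red and purple flavonoid pigments that plants store in the vacuole. Their carbon skeleton is made by chalcone synthase and the early enzymes, and the late enzymes from DFR onwards turn it into coloured, sugar-bearing molecules under control of MYB, bHLH and WD40 proteins. TT19 is a phi-class glutathione S-transferase thought to carry the pigment on its way to the vacuole, and glutathione S-transferases as a family bind or conjugate many small molecules, mostly under stress.

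The largest differences were single genes that were several-fold higher in OE2, among them the metallothionein genes MT1C and MT2A, the phosphate-starvation RNA IPS1, the low-sulfur gene LSU2, the dehydrin gene LTI30 and the glutathione S-transferase gene GSTU4. The anthocyanin regulator PAP2 was called higher in OE2 with and without the pairing of libraries, and PAP1 only with it. Of 10 late pigment genes tested, 3 were called higher with the pairing and none without it, against 12% and 1.55% of all tested genes. As deposited, most other genes were a little lower in OE2, and these small decreases were almost the same in each pair.

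That sameness sets how every test below can be read, because OE2 values followed the same-numbered OE1 values closely. Among genes above 0 in OE1, the lowest OE2/OE1 ratio was 0.6002 in pair 1, 0.6005 in pair 2 and 0.6007 in pair 3, over 21905, 22005 and 22196 genes. All of them read above 0 in OE2. When libraries with unlike numbers were paired, 2560 to 4082 genes had a ratio below 0.6 and 264 to 426 genes were at 0 in OE2.

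The distribution of the ratio was cut off at 0.6 and had a sharp edge at 1. Among genes with at least 1 FPKM in OE1, its median was 0.934, 0.938 and 0.927 in pairs 1, 2 and 3. In pair 1, 1710 genes had a ratio from 0.98 to 1 and 687 genes had one from 1 to 1.02. Pairs 2 and 3 had the same step, with 1581 and 1683 genes just below 1, against 765 and 685 just above. Ratios above 2 were found in 258, 312 and 233 genes.

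**Figure D1:**
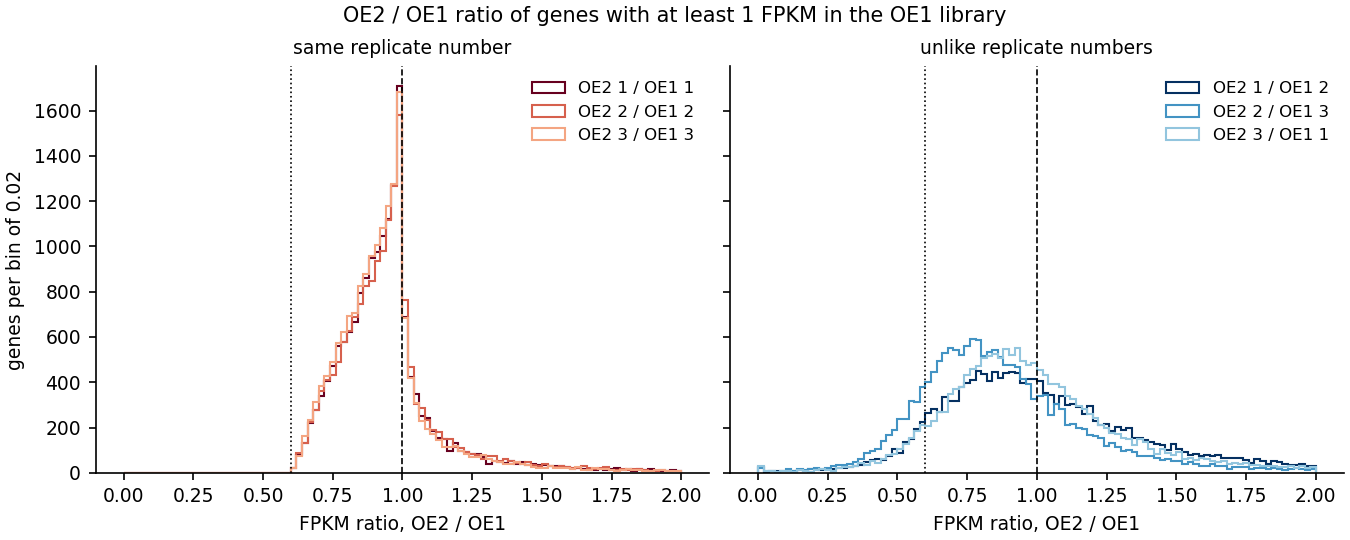
Number of genes (vertical axis) by FPKM ratio of an OE2 to an OE1 library (horizontal axis, bins of 0.02), for same-numbered libraries (left) and 3 pairings of unlike numbers (right), over genes with at least 1 FPKM in the OE1 library; ratios above 2 are not drawn. The dotted line marks 0.6 and the dashed line 1: on the left no gene lies below 0.6 and counts drop at 1, with 1710 genes just below and 687 just above in pair 1, while the right side shows neither edge.

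The ratio of a gene also repeated from pair to pair. Over the 16355 genes with at least 1 FPKM in all OE1 libraries, the SD of the log2 ratio over the 3 pairs had a median of 0.0234. The SD of log2 FPKM had a median of 0.204 over the OE2 libraries and 0.24 over the OE1 libraries. All 3 ratios were below 1 in 11396 genes (69.7%) and above 1 in 2778 genes (17.0%). The repeat was tightest just under a ratio of 1, with a median SD of 0.00488 for mean log2 ratios from -0.03 to 0, and loosest among genes with mean log2 ratios over 1.6, with a median SD of 0.455. Deviations from the group means correlated at 0.959, 0.963 and 0.963 across genes in same-numbered libraries, and at no more than -0.279 in unlike-numbered ones. The deviations of a gene sum to 0 within a group, so high same-numbered values push the unlike-numbered ones below 0. The negative values are thus no separate observation. Genes are not independent, and no test was made of these values.

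**Figure D2:**
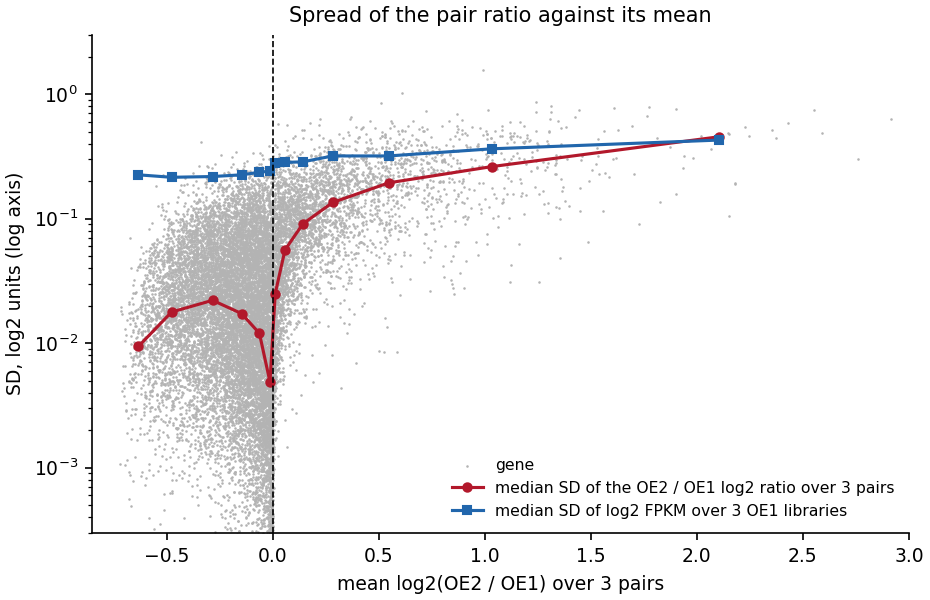
SD in log2 units (vertical, log axis) against the mean log2 OE2/OE1 ratio over 3 pairs (horizontal), for genes with at least 1 FPKM in all OE1 libraries; grey points are genes, red circles the median SD of the ratio over pairs and blue squares the median SD of log2 FPKM over OE1 libraries, per bin of the mean ratio. The red line lies far under the blue one for ratios below 1, with 0.00488 against 0.241 just below 0, and meets it at the right, with 0.455 against 0.428.

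Other properties of the files separated the lines as well. The FPKM of all genes summed to 892212 ± 22818 in OE2, against 1059201 ± 24339 in OE1 (SD, n = 3 each). Genes above 0 numbered 23614 to 23915 in OE2 and 21905 to 22196 in OE1. Totals of 48.6, 50.7 and 54.8 M fragments were fitted to the steps of the OE1 libraries themselves. With them, low values of 9610 single-exon genes fell within 0.05 of a whole number of fragments for 60.5% to 64.7% of values in OE1. No total was fitted to OE2, and its values were read on the totals of the same-numbered OE1 libraries. On that scale 9.1% to 10.5% of the OE2 values were whole, and 267 to 316 of them were below 0.5 of a fragment, against 0 to 2 in OE1. A total that is wrong for OE2 would also give a low share, so these shares do not show whether OE2 values have steps of their own. The depth of OE2 is unknown, and how its values came to be tied to those of OE1 is not known.

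With the replicate number as a block, limma's test called 12031 of 17751 genes at a Benjamini-Hochberg adjusted p under 0.05 (67.8%), with 2135 higher in OE2 (12%) and 9896 lower (55.7%). Without the block, 352 genes were called (1.98%), with 275 higher (1.55%) and 77 lower (0.434%). OE2 libraries lay wholly above OE1 libraries in 1263 genes (7.12%) and wholly below in 2685 genes (15.1%). The filter let in 195 genes that were under 1 FPKM in all 3 OE1 libraries, and thus only through OE2. Their direction was fixed by the filter, and 192 of them were called higher; in the gene lists they were LSU4, CCA1, HSP15.7, SESA5 and 2 chloroplast genome genes. The blocked p-values measure how constant a ratio was over pairs whose members are tied, so they are not evidence from separately measured lines. The fit without the block treats the tied libraries as separate, so its p-values are not such evidence either. For these reasons values are given by library, and for genes given in full the adjusted p without the block follows the blocked one. A call without the block shows only that a difference was large beside the spread within the groups.

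The share of calls that were higher in OE2 was 17.7%, and 48.5% after median-ratio scaling of the libraries. All tested genes had a median log2 change of -0.08 as deposited and 0.01 after scaling, so the sign of a small change depends on the scale; the 12 largest increases were called on both. The ratio also varied with the level and length of a gene. Of genes at 1 to 3 FPKM in OE1, 55.0% had a mean ratio above 1, against 0% of the 116 genes at 1000 FPKM or more. Binned by their level in tt19-8, which shares no library with the ratio, 55.9% of genes under 3 FPKM and 0% of genes at 1000 FPKM or more had a ratio above 1. Of the 112 genes with under 500 bases of exon, 29.5% had a ratio above 1, of genes with 500 to 1000 bases 35.8%, and of genes above 5000 bases 3.92%.

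The 12 largest increases, among genes averaging at least 5 FPKM, included MT1C, MT2A, IPS1, LSU2, LTI30 and LEA18 beside genes of other roles. Metallothioneins are small cysteine-rich proteins that bind metals such as copper and zinc. MT1C (AT1G07610) had 30, 35.3 and 46.4 FPKM in OE2, against 2.66, 1.45 and 2.85 FPKM in OE1. Every OE2 library was above every OE1 library, and the log2 change was 3.53 ± 0.20 (SE; limma adjusted p = 0.00217, and 0.0109 without the block). The near-identical MT1A was listed at 0 in all 6 libraries, so reads of the 2 genes may have been counted under 1 of them.

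MT2A (AT3G09390) was the most abundant of the 12 largest rises. It had 1051, 1125 and 1685 FPKM in OE2, against 256.2, 146.3 and 243.9 FPKM in OE1, a log2 change of 2.58 ± 0.24 (limma adjusted p = 0.00576, and 0.0181 without the block). The groups lay far apart. MT2B had a log2 change of 0.29 that missed the threshold (limma adjusted p = 0.128), and MT3 fell by 0.11 on the log2 scale (limma adjusted p = 0.0373, and 1 without the block), with a log2 change of -0.01 and no call after scaling. Of 8 listed metallothioneins, 4 passed the filter on low values, with 2 higher and 1 lower, against 12% and 55.7% of all tested genes.

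**Figure D3:**
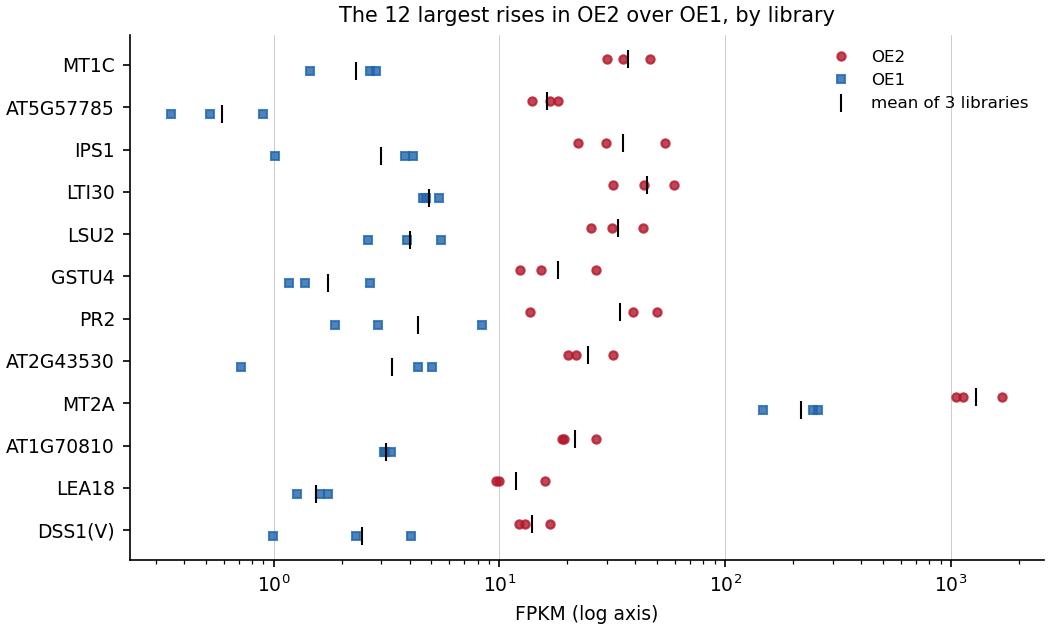
FPKM (horizontal, log axis) of the 12 genes with the largest increases in OE2; red circles are the 3 OE2 libraries, blue squares the 3 OE1 libraries and black ticks the mean of each group. The groups do not overlap in any of the 12 genes, which were picked for large rises in all 3 pairs, so their separation is no support. Over all tested genes, OE2 lay wholly above OE1 in 7.12%. MT2A, at 1051 to 1685 FPKM in OE2, is the highest.

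IPS1 (AT3G09922) is a non-coding RNA that accumulates when phosphate is short and sequesters the microRNA miR399. It had 29.6, 22.3 and 54.1 FPKM in OE2, against 3.8, 1.02 and 4.14 FPKM in OE1, a log2 change of 3.21 ± 0.23 (limma adjusted p = 0.00335, and 0.0356 without the block). All OE2 libraries were above all OE1 libraries. Among 16 tested phosphate starvation genes, 8 were higher and 2 lower, against 12% and 55.7% of all tested genes. After scaling 12 were higher and 2 lower, against 34.4% and 36.6% of all tested genes. Without the block 2 of the 8 were called, against 1.55% of all tested genes called higher. The list's median log2 change was 0.14.

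The SPX proteins, which sense phosphate status and restrain the regulator PHR1, were among the 8. SPX1 had 70.4, 65.5 and 95.9 FPKM in OE2, against 31.4, 23.0 and 35.6 FPKM in OE1 (log2 change 1.34 ± 0.09; limma adjusted p = 0.00274, and 0.0422 without the block). SPX3 changed by 1.38 and SPX2 by 0.58 on the log2 scale, and both were called with the block but not without it (0.0827 and 0.0937). The acid phosphatase gene PAP17 had 39.5, 42.5 and 51.7 FPKM in OE2 and 21.6, 24.2 and 28.6 FPKM in OE1, with no overlap (adjusted p 0.000258, and 0.0545 without the block). The size of the change varied widely among members. AT4, a relative of IPS1, had 76.4, 54.7 and 79.8 FPKM in OE2 against 74.2, 52.8 and 77.1 FPKM in OE1. The transporter PHT1;1 and the galactolipid enzyme MGD3 each fell by 0.29 on the log2 scale, and neither was called without the block.

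LTI30 (AT3G50970) encodes a dehydrin, a protein of cold and drought that protects membranes. It had 59.4, 31.7 and 43.6 FPKM in OE2, against 4.6, 4.71 and 5.37 FPKM in OE1, a log2 change of 2.92 ± 0.23 (limma adjusted p = 0.00412, and 0.0112 without the block). No libraries overlapped. RD29A, a classic drought and cold reporter gene, had 36.3, 27.3 and 32.7 FPKM in OE2 against 6.1, 13.7 and 9.7 FPKM in OE1 (log2 change 1.67 ± 0.36; limma adjusted p = 0.035, and 0.0448 without the block). Of the 14 tested dehydrin and cold-regulated genes, 5 were higher and 4 lower with the block, against 12% and 55.7% of all tested genes, with a median log2 change of 0.12. After scaling 7 were higher and 3 lower, against 34.4% and 36.6% of all tested genes. LTI30 and RD29A were the 2 called without the block. The abundant COR15A had 367 FPKM in OE2 1 against 375 in OE1 1, and RAB18 overlapped between the groups (limma adjusted p = 0.167). LEA18, a late embryogenesis protein gene outside that list, rose by 2.31 on the log2 scale (limma adjusted p = 0.00833, and 0.0118 without the block; 0.0562 with the block and without pair 1).

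The promoter windows of IPS1, LTI30 and RD29A are shown because these 3 genes lead the phosphate and the dehydration groups; they and the motifs were picked after expression values were seen. Each window runs from 250 bases before to 50 bases after the annotated start of the gene, read 5′ to 3′ on the gene's strand from the TAIR10.1 genome (RefSeq). Capitals mark matches on either strand to GNATATNC, the binding site of the phosphate regulator PHR1, to CCGAC, the core of the dehydration-responsive element, and to ACGTG, the core of the abscisic acid response element.
IPS1, chr3:3050739-3051038, forward strand: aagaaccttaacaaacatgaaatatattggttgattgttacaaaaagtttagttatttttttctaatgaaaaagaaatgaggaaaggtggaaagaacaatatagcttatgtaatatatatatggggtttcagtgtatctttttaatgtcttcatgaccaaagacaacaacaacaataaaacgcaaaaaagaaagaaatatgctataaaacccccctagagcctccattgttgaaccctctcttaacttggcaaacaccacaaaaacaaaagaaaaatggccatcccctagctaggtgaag
LTI30, chr3:18940393-18940692, forward strand: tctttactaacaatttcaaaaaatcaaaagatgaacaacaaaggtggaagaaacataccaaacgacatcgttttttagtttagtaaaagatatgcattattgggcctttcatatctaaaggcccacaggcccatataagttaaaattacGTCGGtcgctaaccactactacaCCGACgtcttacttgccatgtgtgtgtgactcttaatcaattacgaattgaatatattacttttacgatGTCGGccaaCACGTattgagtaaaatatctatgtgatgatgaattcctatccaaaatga
RD29A, chr5:21240467-21240766, forward strand: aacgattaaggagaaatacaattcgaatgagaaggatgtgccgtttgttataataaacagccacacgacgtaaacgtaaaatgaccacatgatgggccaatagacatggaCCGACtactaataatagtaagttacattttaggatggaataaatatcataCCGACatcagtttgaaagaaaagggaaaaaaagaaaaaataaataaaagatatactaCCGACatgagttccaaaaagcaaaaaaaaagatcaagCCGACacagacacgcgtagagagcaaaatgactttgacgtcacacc

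LTI30 holds CCGAC at 3 places and ACGTG at 1, RD29A holds CCGAC at 4 places, and IPS1 matches none of the 3 motifs in this window. SPX3 holds GNATATNC at 2 places and SPX1 at 1, whereas PAP17 and COR47 match none. Over 32834 promoters of the same length, 6.09% hold GNATATNC, 15.6% CCGAC and 25.4% ACGTG. Of the 12 largest rises, 0, 3 and 4 hold them. A match describes these letters only, and no match says only that they are not in this window.

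LSU2 (AT5G24660) is a small protein gene switched on when sulfur is short. It had 25.3, 31.5 and 43.2 FPKM in OE2, against 3.89, 2.62 and 5.52 FPKM in OE1, a log2 change of 2.79 ± 0.18 (limma adjusted p = 0.00277, and 0.0132 without the block). The groups were well separated. Its relative LSU1 overlapped between the lines, with a log2 change of 0.10, and was called higher with the block (limma adjusted p = 0.0242). Among 20 tested genes of sulfur and glutathione metabolism, 9 were higher and 9 lower, with a median log2 change of 0, against 12% and 55.7% of all tested genes. The higher ones included GGCT2;1, which degrades glutathione (log2 change 0.83), and the sulfate-reducing enzyme APR2 (0.53). Other low-sulfur response genes called higher with the block were LSU3 (0.7), SDI2 (0.73), BGLU28 (0.51) and APR3 (0.25). SDI1 and APR1 had log2 changes of 0.00 and were not called (limma adjusted p = 0.25 and 0.515), while the sulfate transporter gene SULTR1;2 was lower (-0.28). The lower ones also included GSH1, the first enzyme of glutathione synthesis (-0.37), the sulfite reductase SIR (-0.27) and the vacuolar sulfate exporter SULTR4;2 (-0.48). After scaling the list held 11 higher and 7 lower, against 34.4% and 36.6% of all tested genes. Without the block LSU2 and LSU4 were the 2 genes called, against 1.55% of all tested genes called higher. The 9 higher, the 11 after scaling and the 2 without the block all include LSU4, whose direction was fixed by the filter. LSU4 passed the filter only through OE2, with 1.45, 1.34 and 2.65 FPKM, against 0, 0.113 and 0.139 FPKM in OE1. Its call is therefore not support, and the 3 counts are to be read without it.

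Glutathione S-transferases of the tau class are enzymes that stress often induces. Of 28 listed genes 23 were tested, with 7 higher, 3 lower and 13 not called, against 12% higher and 55.7% lower among all tested genes, and the list's median log2 change was 0.14. After scaling 16 were higher and 0 lower, against 34.4% and 36.6% of all tested genes. Without the block 3 were higher, against 1.55% of all tested genes. GSTU4 (AT2G29460) had 15.3, 12.4 and 26.9 FPKM in OE2, against 1.38, 1.17 and 2.66 FPKM in OE1, a log2 change of 2.78 ± 0.07 (limma adjusted p = 0.000521, and 0.0226 without the block). GSTU19, the most abundant of the higher ones, had 171, 178 and 220 FPKM in OE2, against 70.1, 61.4 and 88.8 FPKM in OE1 (log2 change 1.37 ± 0.07; limma adjusted p = 0.00158, and 0.0257 without the block). Neither gene overlapped between the lines. GSTU1 to GSTU7 are neighbouring copies, and their FPKM summed to 59.9, 59.2 and 85.9 in OE2 and 19.1, 21.1 and 36.9 in OE1; the sum was higher in every OE2 library than in any OE1 library.

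Of 11 tested phi-class genes, the class of TT19, 2 were higher and 6 lower, against 12% and 55.7% of all tested genes. The share of the class called lower was thus close to that of all tested genes. After scaling 5 were higher and 2 lower, against 34.4% and 36.6% of all tested genes. GSTF5 was the 1 called without the block, with 8.34, 9.1 and 8.3 FPKM in OE2 and 5.11, 5.36 and 5.55 FPKM in OE1 (log2 change 0.59 ± 0.04; limma adjusted p = 0.00303, and 0.0449 without the block). GSTF8, the most abundant, fell by 0.28 on the log2 scale. TT19 itself had 0.864, 0.674 and 0.876 FPKM in OE2, against 0, 0.0769 and 0.0712 FPKM in OE1, all too low to be tested. The level of CsGSTF1 was not analysed here.

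The remaining genes among the 12 largest rises had varied roles. PR2, a defence enzyme gene that salicylic acid induces, had 13.7, 49.8 and 39.2 FPKM in OE2, against 1.86, 2.89 and 8.36 FPKM in OE1 (log2 change 2.72 ± 0.42; limma adjusted p = 0.0178, and 0.08 without the block). Its groups did not overlap, but its call was lost without pair 1 or pair 3. It was the 1 gene higher of 11 tested salicylic acid defence genes, and 2 were lower, against 12% and 55.7% of all tested genes. PR1 had 30.1 and 28.4 FPKM in the third OE2 and OE1 libraries. AT5G57785, an uncharacterized protein gene, had 13.9, 18.1 and 16.8 FPKM in OE2, against 0.352, 0.524 and 0.901 FPKM in OE1 (log2 change 3.45 ± 0.10). It passed the filter only through OE2, so its p-values are not given. AT2G43530, a knottin family gene, AT1G70810, a lipid-binding domain gene, and DSS1(V) rose by 2.72, 2.43 and 2.21 on the log2 scale. The knottin gene missed the threshold without the block (0.055) and without pair 3 (0.111), and DSS1(V) missed it without pair 1 (0.0587).

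Outside the 12, the evening clock gene ELF4 rose by 1.24 on the log2 scale (limma adjusted p = 0.00793, 0.0457 without the block, and 0.0547 without pair 3). Of 14 tested clock genes, 4 were higher and 5 lower, against 12% and 55.7% of all tested genes. The 4 include CCA1, which passed the filter only through OE2, so its direction was fixed and its call is not support. The dark-inducible glucosidase gene BGLU30 had 8.47, 8.78 and 13.1 FPKM in OE2, against 1.55, 2.46 and 1.63 FPKM in OE1 (log2 change 1.94 ± 0.23; limma adjusted p = 0.0097, and 0.0161 without the block; 0.071 without pair 1). Its groups were apart. Of the 4 tested sugar starvation genes, 1 was higher and 2 lower, against 12% and 55.7% of all tested genes. Neither of the 2 falls was called without the block.

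Among the regulators of the anthocyanin pathway, PAP2 (AT1G66390), a MYB that switches on the late genes, had 6.47, 7.33 and 7.34 FPKM in OE2, against 0.676, 1.36 and 2.37 FPKM in OE1, a log2 change of 1.76 ± 0.21 (limma adjusted p = 0.0101, and 0.0357 without the block). The groups did not overlap; leaving out pair 2 took the blocked value past the threshold (limma adjusted p = 0.0613). PAP1, its close relative, had 12, 9.99 and 17.5 FPKM in OE2 and 4.72, 3.11 and 10.8 FPKM in OE1. The third OE1 library lay above the second OE2 library, and the log2 change was 1.08 ± 0.19 (limma adjusted p = 0.0241, and 0.248 without the block); it lost its call without pair 1 or without pair 2, and the highest value on leaving out a pair was 0.128.

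MYB111 and MYB12 drive flavonols, the colourless branch. MYB111 had 7.6, 6.7 and 8.91 FPKM in OE2, against 3.24, 3.04 and 4.12 FPKM in OE1, with no overlap (log2 change 0.97 ± 0.02; limma adjusted p = 0.000465, and 0.0419 without the block). MYB12 changed by 0.53 and overlapped (limma adjusted p = 0.00837, and 0.304 without the block; 0.054 without pair 2). The repressors LBD38 and LBD39 fell by 0.26 and 0.40 on the log2 scale with no overlap, and LBD37 by 0.21. Other repressors in the list did not fall. CPC rose by 0.27 (limma adjusted p = 0.0134, and 0.411 without the block), and MYBL2 changed by 0.15 and was not called (limma adjusted p = 0.435). The WD40 protein gene TTG1 and the bHLH genes GL3 and TT8 differed by 0.10 or less, and TTG1 and GL3 had a log2 change of 0.03 and 0.02 in place of -0.07 after scaling. Of 16 tested regulators, 7 were higher and 6 lower, against 12% and 55.7% of all tested genes, with a median log2 change of 0.13. After scaling 9 were higher and 3 lower, against 34.4% and 36.6% of all tested genes. PAP2 and MYB111 were the 2 called without the block.

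**Figure D4:**
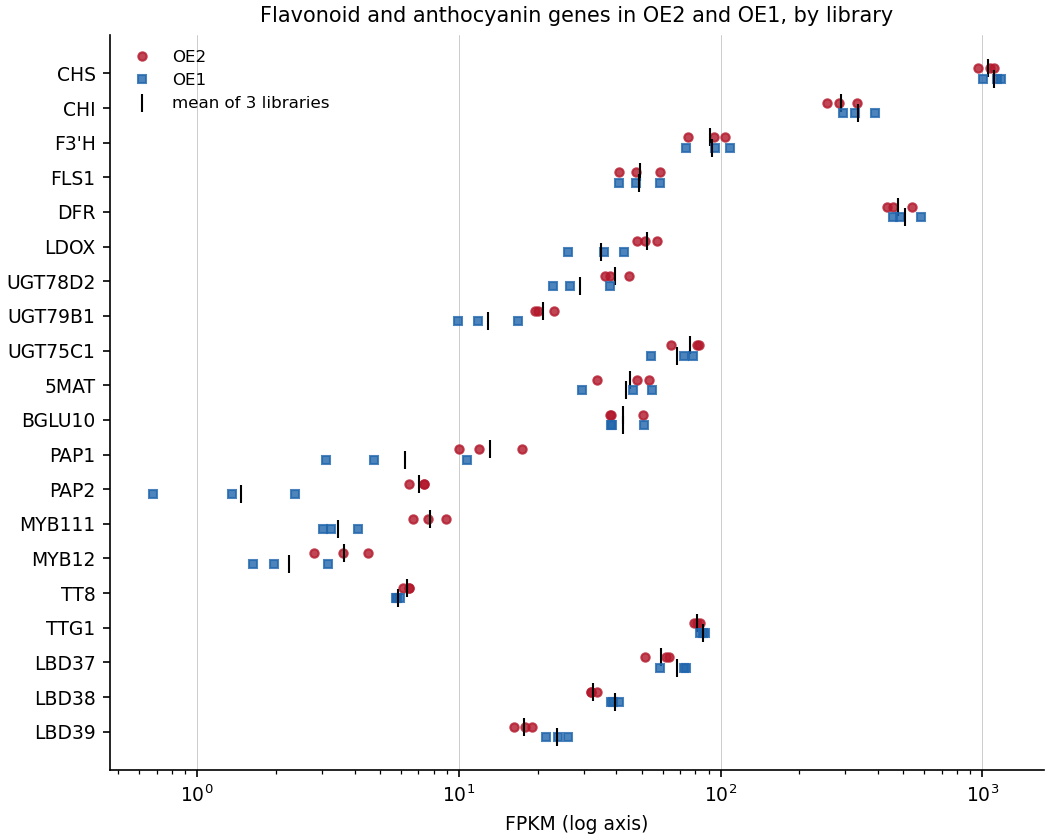
FPKM (horizontal, log axis) of flavonoid enzymes and regulators; red circles are the OE2 libraries, blue squares the OE1 libraries and black ticks group means. PAP2, at 6.47 to 7.34 FPKM in OE2 against 0.676 to 2.37 FPKM in OE1, is the widest gap, while DFR and CHS overlap.

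Among the late genes that make the pigment, 3 were higher, 1 lower and 6 not called of 10 tested, against 12% higher and 55.7% lower among all tested genes, with a median log2 change of 0.03. None was called without the block. UGT79B1, which adds xylose to anthocyanins, had 19.5, 20.1 and 23.2 FPKM in OE2, against 11.9, 9.88 and 16.9 FPKM in OE1 (log2 change 0.69 ± 0.13; limma adjusted p = 0.0258, and 0.138 without the block). LDOX, which oxidises leucoanthocyanidins, had 47.8, 57.3 and 51.6 FPKM in OE2, against 26.2, 35.8 and 42.8 FPKM in OE1 (log2 change 0.59 ± 0.15; limma adjusted p = 0.0479, and 0.18 without the block). Neither gene overlapped between the lines. Both of them, and the glucosyltransferase gene UGT78D2 (log2 change 0.46; limma adjusted p = 0.0371), lost their call when pair 1 or pair 2 was left out, and LDOX also with a pseudocount of 0.1 or no filter.

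DFR, the first late enzyme, had 454.3, 432.6 and 537.4 FPKM in OE2, against 485.0, 456.0 and 584.1 FPKM in OE1, a fall of 0.10 on the log2 scale with overlap (limma adjusted p = 0.0091, and 0.928 without the block). After scaling its change was 0.00. Of the early enzymes, chalcone synthase CHS had 1070, 965.4 and 1112 FPKM in OE2 and 1142, 1010 and 1183 FPKM in OE1 (log2 change -0.08, and 0.01 after scaling). CHI also fell, CHIL rose by 0.28 (limma adjusted p = 0.0489, a call lost on leaving out any of the pairs), and F3'H and the flavonol synthase FLS1 differed by at most 0.02. None of the 5 tested early genes was called without the block. F3H was at 0.0786 FPKM or less in every library.

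The largest decreases were close to the lower limit of the ratio, and they were ranked by level rather than by size. EXT3, an extensin of the cell wall and the highest gene in all 6 libraries, had 27114, 41334 and 19972 FPKM in OE2, against 41370, 63322 and 30280 FPKM in OE1 (log2 change -0.61 ± 0.004; limma adjusted p = 6.76e-05, and 0.509 without the block). The libraries overlapped between the lines, yet each pair had nearly the same ratio. The difference of EXT3 was 14256, 21988 and 10307 FPKM of the 179099, 177789 and 178694 FPKM by which all lower genes together fell short of OE1 in pairs 1, 2 and 3.

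The other genes among the 12 falls included the proline dehydrogenase ERD5 and the sugar transporter ERD6, the ubiquitin-conjugating enzyme UBC10, the ascorbate peroxidase APX1, the tonoplast water channel TIP1;2 and 2 ATP synthase subunit genes. Their log2 changes lay between -0.72 and -0.60. APX1 had 1379, 1262 and 1806 FPKM in OE2, against 2216, 2021 and 2903 FPKM in OE1, with no overlap (limma adjusted p = 4.56e-05, and 0.156 without the block). AT5G08690, of the ATP synthase alpha/beta family, was the 1 fall of the 12 that was called without the block (0.045), with 779.6, 775.8 and 744.2 FPKM in OE2 and 1190, 1185 and 1132 FPKM in OE1.

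Of 17 tested aquaporins, which conduct water through the plasma and vacuolar membranes, 17 were lower with a median log2 change of -0.21. After scaling 12 were lower and 4 higher. Of all tested genes 55.7% were lower and 12% higher, and 36.6% and 34.4% after scaling. PIP2A, the most abundant, had 11776, 10681 and 15584 FPKM in OE2 and 16797, 15230 and 22240 FPKM in OE1 (log2 change -0.51; limma adjusted p = 2.75e-05, and 0.311 without the block). Of 14 oxidative stress enzymes 12 were lower (9 lower and 2 higher after scaling), and all 4 vacuolar ABCC transporters, the family that moves glutathione conjugates and anthocyanins, were lower on both scales. None of these 33 falls was called without the block. Over all genes with at least 1 FPKM in all OE1 libraries, not split by family, abundant and long genes were mostly lower. A mean ratio above 1 was found in 0% of genes at 1000 FPKM or more in OE1 and in 3.92% of genes above 5000 bases. Genes at 100 to 300 FPKM in OE1 had a median log2 ratio of -0.22. The part of level and length in these list counts was not tested.

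With the block 4 of 26 nuclear photosynthesis genes were higher (15.4%) and 15 lower (57.7%), near the 12% and 55.7% of all tested genes. After scaling 14 were higher and 9 lower, against 34.4% and 36.6% of all tested genes. The light-harvesting genes LHCB1.1 and LHCB3 rose by 1.2 and 0.68 on the log2 scale, but LHCB1.1 to LHCB1.3 are near-identical, and their sum was 3347, 3191 and 4200 FPKM in OE2 against 3438, 3205 and 4498 FPKM in OE1. RBCS1A, a small subunit of Rubisco, fell by 0.51. Of 11 reference genes often used for normalization, 9 were lower and 1 higher (6 and 3 after scaling), with the ubiquitin gene UBQ10 at -0.23 and the TIP41 gene at 0.38.

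The counts of the other lists stand against 12% higher and 55.7% lower among all tested genes, and 34.4% and 36.6% after scaling. Jasmonate genes had 2 higher and 10 lower of 17 tested (8 and 7 after scaling), and aliphatic glucosinolate genes had 1 and 7 of 14 (6 and 5 after scaling). Indole glucosinolate genes had 1 and 4 of 9 (3 and 3 after scaling), iron genes 1 and 5 of 8 (3 and 3), and histone genes 4 and 11 of 33 (15 and 9). Among general phenylpropanoid genes, which feed the flavonoid pathway, 3 were higher and 5 lower of 8 (4 and 3 after scaling); the ligase gene 4CL1 fell by 0.64 on the log2 scale with no overlap (limma adjusted p = 5.71e-05, and 0.0906 without the block). The 4 tested flavonol decoration genes had 3 higher and 1 lower on both scales, and 3 proanthocyanidin genes were lower (2 after scaling). Of 11 heat shock genes only 3 passed the filter, 1 of them, HSP15.7, only through OE2, and no count of calls is given for them.

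Of 7 root hair genes 5 were lower and none higher, while 2 were lower and 1 higher after scaling. Chloroplast genome genes had 33 of 52 lower and 3 higher (24 and 8 after scaling). Of these 52, 2 passed the filter only through OE2, so their direction was fixed and they are not support for a rise. Mitochondrial genome genes had 18 of 25 lower and none higher (16 and 0 after scaling). Of all tested genes 55.7% were lower and 12% higher, and 36.6% and 34.4% after scaling. Of 10 seed storage and oleosin genes 5 passed the filter. The albumin gene SESA5, which passed it only through OE2, had 5.29, 9.79 and 5.73 FPKM in OE2 and was listed at 0 in all 3 OE1 libraries. Fewer cells of a type and less RNA per cell cannot be told apart in these whole-seedling libraries. The part of tissue in the group differences above was not tested.

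**Figure D5:**
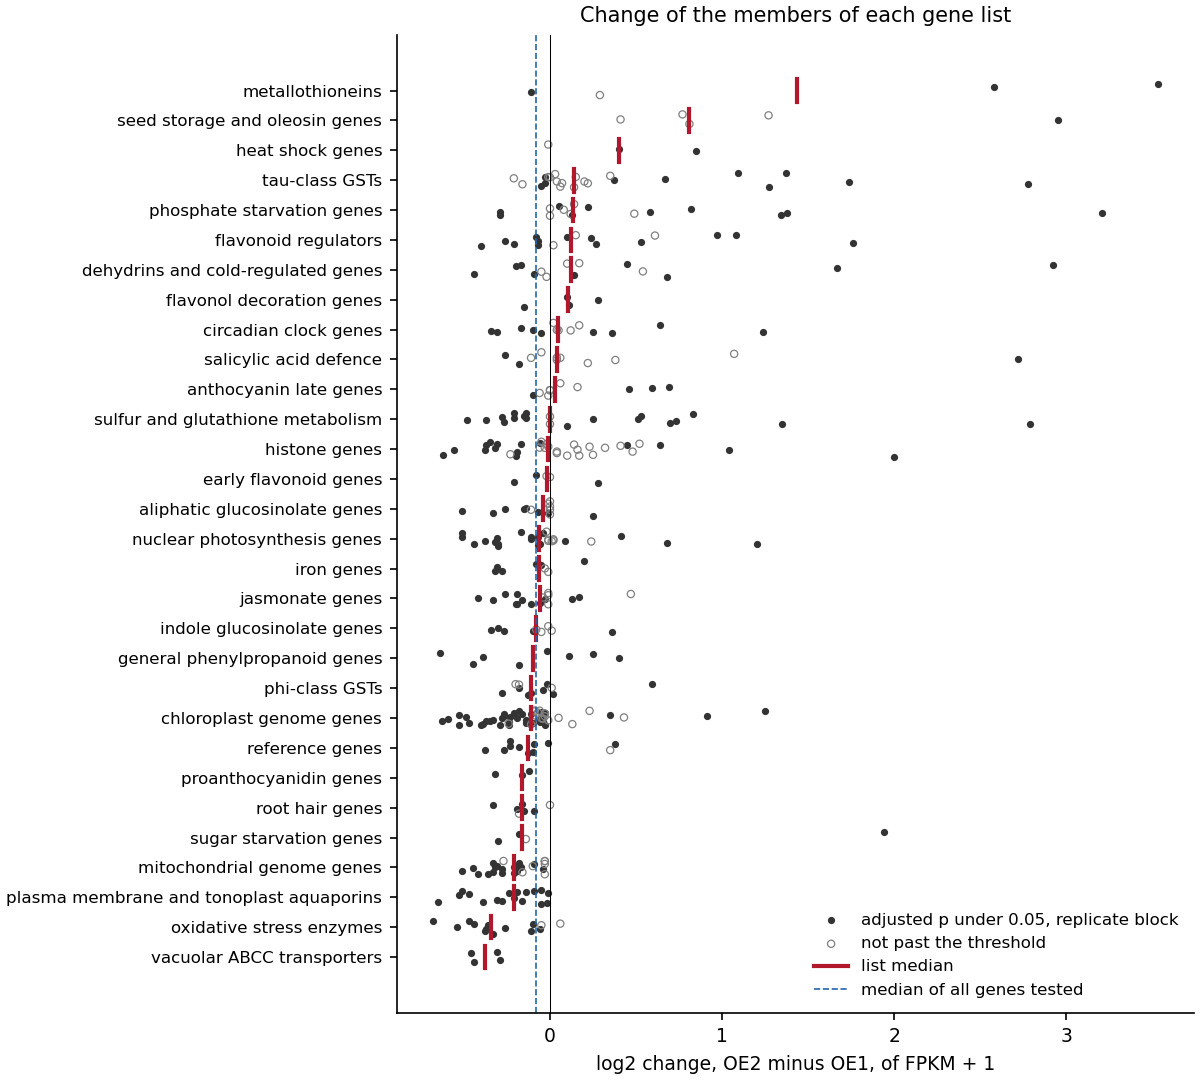
Log2 change, OE2 minus OE1, of FPKM + 1 (horizontal) for the tested members of 30 gene lists (vertical, ordered by median); filled points passed the blocked limma test, open points did not, red bars are list medians and the dashed line the median of all tested genes, -0.08. Single members reach 3.53, and the falls, which are bounded at the left, turn to higher for 4 of 17 aquaporins after scaling.

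Genes at 0 in OE1 gave a further view of the low end. Of 10202 genes at 0 in all 3 OE1 libraries, 8573 were at 0 in all 3 OE2 libraries and 352 were above 0 in all of them, with a median level of 0.0235 FPKM. SESA5 was the highest of these genes; PROPEP5, an elicitor peptide gene picked after its values were seen, had 1.18, 1.02 and 0.553 FPKM in OE2. These levels were mostly under the filter, and no fold is given against a group listed at 0.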

How the data were processed

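The deposited values are FPKM per gene, 1 file per sample with 33602 gene identifiers. The submitters' processing notes name HISAT 0.1.6, edgeR and TAIR10 with no roles, and gene lengths, totals and filters are not given in the sources used here. Symbols and positions were matched for 32835 identifiers to the TAIR10.1 annotation; the files hold no coordinates.

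OE2 and OE1 were compared with limma 3.58.1 (R 4.3.3) on log2(FPKM + 1) with the replicate number as a block (eBayes, trend and robust). A gene entered with 1 FPKM or more in 3 or more of the 6 libraries. The Benjamini-Hochberg adjustment ran over 17751 genes, and the threshold was 0.05. The pseudocount understates changes of low genes. Errors are limma standard errors or SD. The fit was checked on simulated data, in which the noise was independent between libraries and the ratio had no lower limit. The simulation thus could not check calls from values tied as those of OE2 and OE1 are. The labels do not say what a replicate number marks; the block was kept because same-numbered libraries deviated together (correlations 0.959, 0.963 and 0.963).

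Genes named were, among those called, moving the same way in all 3 pairs and averaging at least 5 FPKM, the 12 largest rises and the 12 falls of -0.6 or less with the highest OE1 level; up to 4 members per list by adjusted p; all flavonoid enzymes and regulators; the reference genes. Members of lists given in the text beyond these were chosen after their values were seen. The comparison and the 30 gene lists were chosen with earlier results of these data known. Alternatives tried were no block, other filters, a pseudocount of 0.1, median-ratio scaling, all 9 libraries, plain eBayes, a fold minimum of 1.5 (added after seeing the data) and leaving out each pair. Tables and plots used Python 3.11.15, numpy 2.4.6, pandas 2.3.3 and matplotlib 3.10.9.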

Additional observations from a re-analysis of the deposited data

How the results depend on the processing

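The replicate block decided most calls. Without it, 352 genes were called, 275 higher and 77 lower, and 19 of the 143 named genes called with it kept their call; with all 9 libraries and no block the counts were 289, 281, 8 and 19. With a fold minimum of 1.5, chosen after seeing the data, they were 25, 5, 20 and 5. Median-ratio scaling gave 6108 higher and 6498 lower. Leaving out 1 pair gave 8891 to 10477 calls, 1135 to 1544 higher, 7756 to 8933 lower and 125 to 131 named genes. Without pair 1 the 1135 higher calls, and without pair 3 the 1281, were under the 2135 by more than 1.5 times. A pseudocount of 0.1, the other filters and plain eBayes left all 4 counts within 1.5 times. The lowest pair ratio was 0.6008 for genes above 1 FPKM in OE1 and 0.6068 above 10 FPKM.

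Small changes turned sign under scaling, in log2 units: 4CL2 0.08, CHS 0.01, TTG1 0.03, GSTF9 0.07, PSAF 0.03, RBCS3B 0.04, EXPA18 0.00, FIT 0.04, ATMG00020 0.01, BGLU10 0.09, A3GlcCouT1 0.09, A3GlcCouT2 0.03, F3'H 0.08, GL3 0.02, ACT8 0.09 and SAND 0.00. Uncalled values also turned when a pair was left out: MYBL2 ranged from -0.01 to 0.28, A3GlcCouT1 from -0.01 to 0.01, SPL9 from -0.01 to 0.04 and F3'H from -0.04 to 0.01. The cause was not tested. With 3 pairs and unknown OE2 depth, changes of low genes cannot be given a counting error.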
